A study of Drosophila melanogaster with 7 samples.

Results

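ASH2 peaks that lay on the gene-body mark H3K36me3 and on no other mapped mark were examined in chromatin of wing imaginal discs, sheets of larval epithelium from which the adult wing develops. They were chosen from the deposited peak lists as the ASH2 peaks that overlapped an H3K36me3 peak by at least 1 bp and overlapped no peak of H3K4me3, H3K27me3 or RNA polymerase II phosphorylated at serine 2 (Ser2P) or serine 5 (Ser5P). The rule found 867 peaks, which were 2.75% of the 31582 peaks in the ASH2 list and 26.5% of the 3270 ASH2 peaks on H3K36me3 (95% exact Clopper-Pearson interval 25.01 to 28.1, chromosome arms 24.4 to 28.7). They are called lone ASH2 peaks here, and they were set beside the 2092 ASH2 peaks on H3K36me3 that also overlapped H3K4me3 and the 17929 ASH2 peaks that overlapped no other list.

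The study profiled discs from Drosophila melanogaster larvae of the third instar by chromatin immunoprecipitation and sequencing, with 1 library per target and 1 of input DNA, which was not analysed here. The labels give neither a genotype nor a treatment, and the discs were not divided by cell type, so each list is an average over the disc. The ASH2 library is named after its label, which gives a catalogue number sold against the HA epitope tag and mentions no tagged line. No target had a replicate, so no difference below was tested. Ranges over the 5 chromosome arms show the spread within a list, and intervals cover the counting of peaks only. The lists hold positions and no read counts, so the depth behind them is unknown, and a place outside a list is not shown to lack the mark.

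ASH2, of the trithorax group, belongs to the enzyme complexes that place methyl groups on lysine 4 of histone H3. Trimethylation at that lysine marks the promoters of active genes, where polymerase carries serine 5 phosphorylation. H3K36me3 is laid down along transcribed gene bodies by Set2, an enzyme that travels with the elongating, serine 2 phosphorylated polymerase, and it is usually strongest away from the promoter. H3K27me3 is the mark of Polycomb repression. An ASH2 peak on H3K36me3 alone is therefore one that the lists place in a gene-body mark without a promoter mark.

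Most ASH2 on H3K36me3 was ASH2 at a promoter mark. Of the 3270 ASH2 peaks on H3K36me3, 64.0% also overlapped H3K4me3 (interval 62.3 to 65.6), 36.4% overlapped Ser2P and 28.5% Ser5P. H3K27me3 was present at 124 of them, or 3.79%. H3K4me3 as the only other mark was found at 861 peaks, close to the number of lone peaks, and H3K4me3 with both polymerase forms at 525. Without H3K4me3 there were 1178 ASH2 peaks on H3K36me3, and 73.6% of these were the lone peaks (interval 71.0 to 76.1). The rest of that set comprised 162 peaks with Ser2P alone, 69 with Ser5P alone, 69 with both polymerase forms, 9 with H3K27me3 alone and 2 with H3K27me3 and Ser2P.

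Lone ASH2 peaks were narrow. Their median width was 147 bp (interquartile range 50.5 to 298, arm medians 120 to 172), against 629 bp for ASH2 peaks on H3K36me3 with H3K4me3 (389 to 959, arm medians 615.5 to 703). Those with H3K4me3 as the only other mark had a median of 510 bp. The lone peaks were closer in width to the ASH2 peaks in no other list, whose median was 160 bp (50 to 318, arm medians 153 to 168). A wide peak meets more lists than a narrow one, so the rule itself favours narrow peaks.

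**Figure D1:**
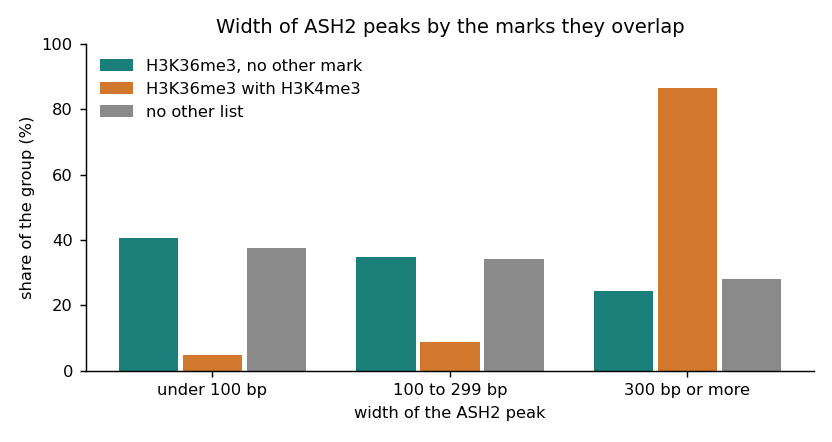
Share of each group of ASH2 peaks (%, vertical axis) in 3 classes of peak width (bp, horizontal axis); bars are shares of 867 peaks on H3K36me3 with no other mark, 2092 on H3K36me3 with H3K4me3 and 17929 in no other list. Peaks of 300 bp or more made up 24.6% of the first group, 86.4% of the second and 28.1% of the third.

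By width class, 351 lone peaks (40.5%, arms 37.5 to 45.4) were under 100 bp, against 102 (4.88%) of the peaks with H3K4me3 and 37.7% of the peaks in no other list. Peaks of 300 bp or more numbered 213 (24.6%) among the lone peaks and 1808 (86.4%) among those with H3K4me3. Only 7 lone peaks reached 1000 bp, whereas 487 peaks with H3K4me3 did. Entries whose start equals their end occurred 5 times among the lone peaks and were counted as 1 bp in overlaps.

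The widest lone peak, on 2R from 9112501 to 9114154 (dm3, 1654 bp), lay over 73.2% of its length in an H3K36me3 peak of 1362 bp and ended 320 bp from a Ser2P peak and 1122 bp from a Ser5P peak. The second, on 2L from 3170391 to 3171665 (1275 bp), had only 23.7% of its length in H3K36me3 and its midpoint 336 bp outside the edge. The next, on 2L from 4463814 to 4465052 (1239 bp), spanned its whole 1018 bp H3K36me3 peak. That on 3R from 3948396 to 3949630 (1235 bp) again straddled an edge, with 20.8% inside. The fifth, on 3L from 23310450 to 23311621 (1172 bp), lay 3075 bp from H3K4me3 but 222119 bp from the nearest Ser5P peak and 439429 bp from the nearest Ser2P peak. The widest lone peaks were thus spread over edges and whole H3K36me3 peaks, and the one nearest to H3K4me3 was 625 bp away from it. By contrast, the widest ASH2 peak with both histone marks, on 2R from 7779345 to 7782928 (3584 bp), had 74.7% of its length under H3K4me3 and 91.9% under Ser5P. No gene is named at these positions because the gene table used here follows a later genome release, and no sequence is printed for the same reason.

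Lone peaks came late in the deposited ASH2 list, and the peaks with H3K4me3 did not. The entries of the list are grouped by chromosome, are not in order of position within a chromosome, and become narrower from the first to the last: the median width was 879 bp in the first 10% of each chromosome's entries and 97 bp in the last 10%. What the order stands for is not given in the sources used here. The median place of a lone peak was 79.3% of the way down its chromosome's entries (arm medians 77.4 to 83.9), against 46.1% for peaks with H3K4me3 (37.3 to 47.8) and 49.2% for peaks in no other list (48.7 to 50.5). Only 7 lone peaks, or 0.807% of them, stood in the first 10% of entries, and 222 (25.6%) stood in the last. Read as a share of all ASH2 entries, lone peaks were 0.221% of the first 10% (interval 0.0891 to 0.456) and 7.03% of the last 10% (6.16 to 7.98).

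**Figure D2:**
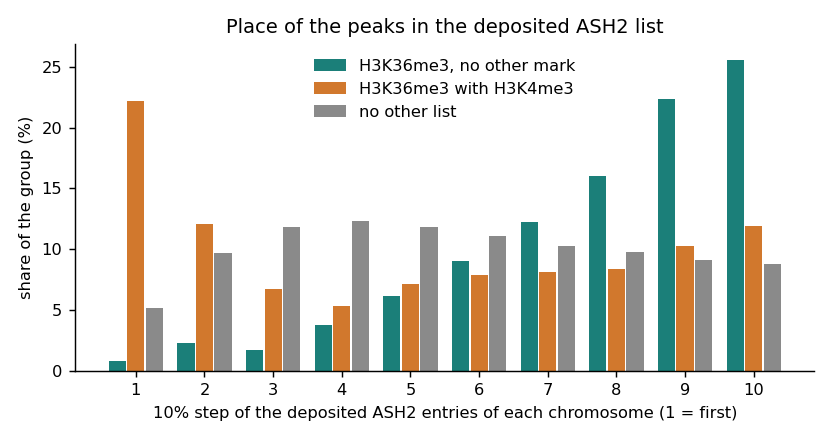
Share of each group of ASH2 peaks (%, vertical axis) in successive 10% steps of the deposited entries of each chromosome (horizontal axis, 1 is first). Lone peaks go from 0.807% of their group in the first step to 25.6% in the last, peaks with H3K4me3 are at 22.2% and 11.9%, and peaks in no other list at 5.19% and 8.82%.

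The groups also differed in place within classes of width. Among peaks of 300 bp or more, the median place was 60.4% for lone peaks, 34.4% for peaks with H3K4me3 and 22.5% for peaks in no other list. Among peaks under 100 bp it was 84.6% for lone peaks, 90.2% for peaks with H3K4me3 and 62.8% for peaks in no other list. From 100 to under 300 bp it was 78.8% for lone peaks, 84.3% for peaks with H3K4me3 and 51.8% for peaks in no other list. In every width class the lone peaks therefore stood later than the peaks in no other list. The peaks with H3K4me3 stood earlier than the lone peaks only in the class from 300 bp, which held 86.4% of the peaks with H3K4me3.

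Along the H3K36me3 peak, lone ASH2 peaks were found at all depths and most often near an edge. In all, 614 of them (70.8%, arms 68.3 to 73.8) lay wholly inside H3K36me3, against 330 (15.8%, arms 14.7 to 16.8) of the peaks with H3K4me3. The groups differ in width, and within classes of width the contrast was smaller. It was 91.7% against 87.3% under 100 bp, 66.3% against 42.3% from 100 to under 300 bp, and 42.7% against 9.07% above. The peaks with H3K4me3 must also touch that mark, which limits where they can lie. The midpoint of a lone peak lay a median of 179 bp inside the nearer H3K36me3 edge (interquartile range 62.0 to 442), and that of a peak with H3K4me3 53.0 bp inside (-100 to 196, negative values being outside). The midpoint was outside H3K36me3 for 116 lone peaks (13.4%) and for 831 peaks with H3K4me3 (39.7%). It was within 250 bp of the edge, on the inside, for 417 lone peaks (48.1%), and at least 1000 bp inside for 66 (7.61%), against 9 (0.430%) of the peaks with H3K4me3. As a share of the way from edge to centre, the median was 0.336 for lone peaks (arm medians 0.278 to 0.368) and 0.0751 for peaks with H3K4me3 (arm medians 0.00442 to 0.110). In the same order it was 0.422 and 0.315 under 100 bp, 0.310 and 0.0985 from 100 to under 300 bp, and 0.249 and 0.0584 above.

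Since H3K36me3 peaks differ in length and part of each is taken up by the other marks, the midpoints of ASH2 peaks were also counted per kb of H3K36me3 sequence free of the 4 excluded lists. Such free sequence amounted to 4383 kb, which was 49.7% of all H3K36me3 sequence. It held 831 ASH2 midpoints, 750 of them from lone peaks and 81 from peaks whose flank reached an excluded list. This gave 0.190 midpoints per kb (95% Poisson interval 0.177 to 0.203), against 0.214 per kb (0.211 to 0.217) in the 93745 kb in no other list. The ratio was 0.886, and it ran from 0.790 on the X to 1.03 on 2L, so over all entries free H3K36me3 sequence was below the unmarked sequence on 4 of 5 arms. The early and late entries of the list went opposite ways. Among the first 50% of entries the densities were 0.0167 per kb in free H3K36me3 sequence and 0.113 in unmarked sequence. Among the last 50% free H3K36me3 sequence was the higher, at 0.173 per kb (0.161 to 0.186) against 0.101 (0.0989 to 0.103). Of the 20066 midpoints in unmarked sequence, 17929 came from peaks in no other list. The rest came from peaks whose flank reached a list, H3K36me3 included. How these were spread by distance from H3K36me3 or H3K4me3 was not counted. What they add to the unmarked densities near those marks, given below, is therefore unknown.

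Over the whole list, ASH2 was sparse away from the edges of H3K36me3 and near its outside density close to them. The outer 250 bp of free H3K36me3 sequence held 0.295 ASH2 midpoints per kb (interval 0.269 to 0.324), and the unmarked sequence within 1000 bp outside the edge held 0.296 (0.282 to 0.310). Here and in the split by entries below, the outside values include peaks whose flank reached H3K36me3 or another list. From 250 bp inwards the density was 0.132 per kb (0.119 to 0.146), or 0.447 times the outside value, and it was lower than outside on all 5 arms, with ratios of 0.352 on the X to 0.548 on 2L. At 1000 bp or more from an edge it was 0.0996 per kb (0.0781 to 0.125, 73 midpoints).

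**Figure D3:**
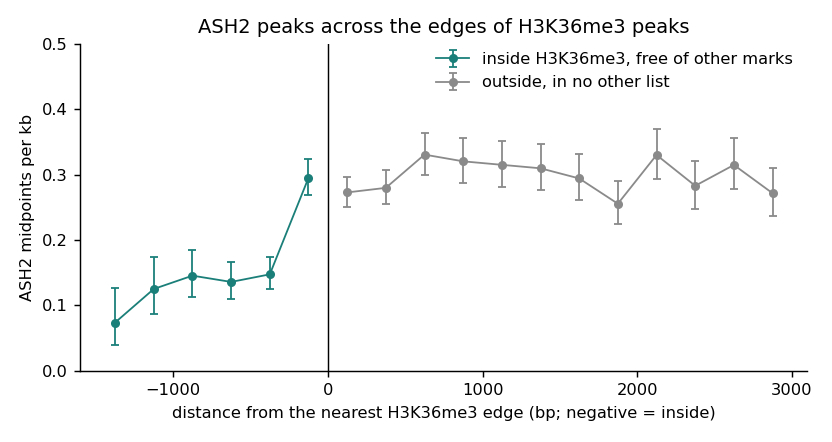
ASH2 midpoints per kb (vertical axis) by distance from the nearest H3K36me3 edge in bins of 250 bp (horizontal axis, with the inside drawn to the left at negative values and the outside to the right at positive ones), counted inside in H3K36me3 sequence free of other marks and outside in sequence of no other list; bars are 95% Poisson intervals. The outermost bin inside is at 0.295 and the next at 0.148, while the 12 bins outside lie between 0.256 and 0.331.

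The density inside H3K36me3 was lowest, relative to outside, among the early entries of the ASH2 list. Among the first 50% of entries, only 18 midpoints lay 250 bp or more inside free H3K36me3 sequence, a density of 0.00634 per kb, against 0.163 per kb in the unmarked sequence within 1000 bp outside the edge (990 midpoints), a ratio of 0.0388. On single arms this ratio was 0.0218 to 0.0446. The outer 250 bp inside the edge were also low among these entries, with 55 midpoints, 0.0356 per kb and a ratio of 0.218. Among the last 50% of entries the densities were 0.126 and 0.132 per kb (357 and 801 midpoints), a ratio of 0.952 that ran from 0.665 on the X to 1.23 on 2L. The outer 250 bp held 401 midpoints of the last 50%, or 0.260 per kb, 1.96 times the outside value, so the near-equal densities at the edge in the whole list held in neither part of it. By width, the inside to outside ratio was 0.632 for peaks under 100 bp, 0.470 for peaks from 100 to under 300 bp and 0.286 for wider ones.

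Other kinds of sequence were less one-sided. Of the ASH2 midpoints in sequence covered by H3K36me3 alone, 8.78% came from the first 50% of entries. The share was 23.6% in sequence covered by Ser2P alone, 33.7% under H3K27me3 alone, 52.8% in sequence of no other list, 68.0% under H3K4me3 alone and 70.6% under Ser5P alone. Over all entries, ASH2 density was similar under H3K36me3 alone and Ser2P alone (0.190 and 0.175 midpoints per kb), 0.428 per kb under H3K27me3 alone, and 1.06 per kb under H3K4me3 alone and under Ser5P alone.

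Although the rule kept them off H3K4me3, lone peaks lay near it. Distances are gaps between the facing edges of peaks. The median gap to the nearest H3K4me3 peak was 1220 bp (interquartile range 486 to 3138, arm medians 961.5 to 1486), against 10742 bp for ASH2 peaks in no other list (3423 to 27231). An H3K4me3 peak lay within 500 bp of 225 lone peaks (26.0%), within 2000 bp of 551 (63.6%) and within 5000 bp of 742 (85.6%). For peaks in no other list these shares were 5.27%, 17.2% and 32.1%. The bases of H3K36me3 sequence free of the excluded marks had a median gap to H3K4me3 of 1741 bp (interquartile range 762 to 3778). This is not the same measure, because the gap of a peak starts at its edge, which makes it shorter. Some lone peaks also reach past H3K36me3. Densities by midpoint at set distances from H3K4me3 are given below.

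Ser5P was farther away. The median gap from a lone peak to the nearest Ser5P peak was 4792 bp (1692 to 10976, arm medians 2894 to 6738), against 1078 bp for peaks on H3K36me3 with H3K4me3 (0 to 6934), of which many overlap Ser5P. For the 861 peaks with H3K4me3 as the only other mark, which like the lone peaks cannot overlap Ser5P, the median was 5525 bp (1759 to 13062, arm medians 4555 to 6407). The arm medians of these 2 groups overlapped. Bases of free H3K36me3 sequence had a median gap to Ser5P of 5286 bp (2397 to 11457). H3K4me3 was nearer than Ser5P for 714 of the 867 lone peaks (82.4%, arms 72.8 to 87.0).

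The elongating polymerase lay between them in distance. The median gap from a lone peak to Ser2P was 2473 bp (780.5 to 8513, arm medians 1731.5 to 4875), and 160 lone peaks (18.5%) had Ser2P within 500 bp. Peaks with H3K4me3 as the only other mark gave a median of 2720 bp. The median gap to H3K27me3 was 9262 bp for lone peaks (arm medians 4426 to 17111), longer than that to Ser5P on 2L, 2R and 3L but not on 3R (5601 against 5792 bp) or X (4426 against 5957 bp). It was 4256 bp for ASH2 peaks in no other list (arm medians 2762 to 8270).

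ASH2 density was higher in H3K36me3 sequence under 1000 bp from H3K4me3 than farther away. In free H3K36me3 sequence it was 0.282 midpoints per kb under 200 bp from H3K4me3 (interval 0.223 to 0.352), 0.288 from 200 to under 500 bp, 0.241 from 500 to under 1000 bp and 0.163 from 1000 to under 2000 bp (0.139 to 0.190). From there on it stayed at 0.140 to 0.155 per kb. At the same distances, sequence in no other list held more ASH2: 0.466 per kb under 200 bp, 0.349 from 1000 to under 2000 bp and 0.252 from 5000 to under 10000 bp. These values include midpoints of peaks whose flank reached H3K4me3 or another list. The ratio of H3K36me3 to unmarked sequence was lowest, at 0.466, from 1000 to under 2000 bp, and at 10000 bp or more it was 0.894, where the intervals overlapped (0.108 to 0.197 and 0.162 to 0.169).

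**Figure D4:**
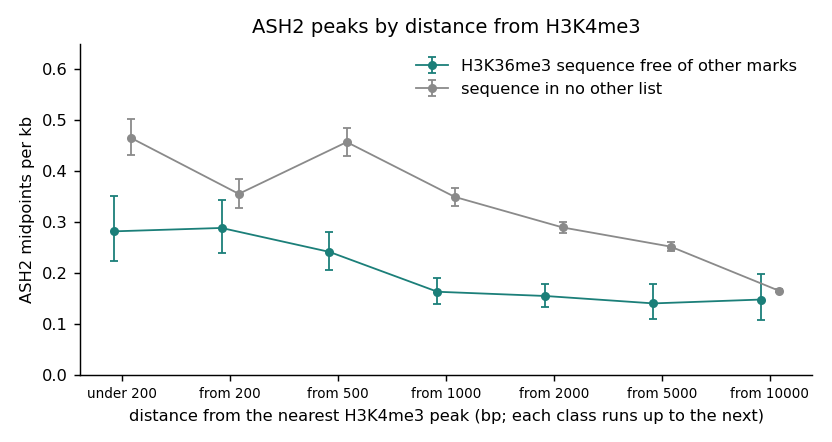
ASH2 midpoints per kb (vertical axis) in H3K36me3 sequence free of other marks and in sequence of no other list, by distance from the nearest H3K4me3 peak (bp, horizontal axis, unequal classes); bars are 95% Poisson intervals. The H3K36me3 values run between 0.140 and 0.288, below the unmarked values in the 6 classes under 10000 bp, although the intervals meet from 200 to under 500 bp.

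Lone peaks close to H3K4me3 were somewhat wider than distant ones and stood at a similar place in the list. The 225 lone peaks within 500 bp of H3K4me3 measured 174 bp in the median and stood 79.8% down the entries, and the 125 that lay over 5000 bp away had medians of 118 bp and 80.5%. The gap to the nearest other ASH2 peak was 503 bp for the close ones and 1687 bp for the distant ones. The lone peak farthest from H3K4me3, on X from 30425 to 30528 (104 bp), lay 855 bp inside an H3K36me3 peak of 2123 bp and 108245 bp from H3K4me3. Next came a peak on 3L from 23710596 to 23711245 (650 bp), 107669 bp away, on an H3K36me3 peak of only 106 bp. The peak on 2L from 14030 to 14091 (62 bp) lay 58546 bp from H3K4me3 but 4929 bp from Ser2P. The other 2 of the 5 farthest, on 3L (7771291 to 7771473) and on 2L (5189277 to 5189294), lay 69 and 47 bp from a Ser2P peak, at 51711 and 45932 bp from H3K4me3. In all, 39 lone peaks (4.50%) had none of the 4 excluded marks within 5000 bp, against 19.5% of the ASH2 peaks in no other list.

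The direction of transcription is not in the files, so H3K36me3 peaks of at least 1000 bp with H3K4me3 within 500 bp of 1 end only were read from that end in 5 equal segments. There were 1459 of these, with 232 lone peaks whose midpoint lay inside. Of the lone peaks, 38.4% (89) fell in the segment farthest from H3K4me3 and 11.2% (26) in the nearest. Of the 433 peaks with H3K4me3, which by definition touch that mark, 78.98% lay in the nearest segment and 0 in the farthest. Per kb of free sequence, lone peaks were most frequent in the segments at both ends, with 0.242 per kb in the nearest (interval 0.158 to 0.354) and 0.203 in the farthest (0.163 to 0.250), and least frequent in the middle segment, with 0.110 (0.0779 to 0.151). Free sequence amounted to 438 kb in the farthest segment, 396 kb in the one before it, with 51 lone peaks or 0.129 per kb, and 108 kb in the nearest.

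**Figure D5:**
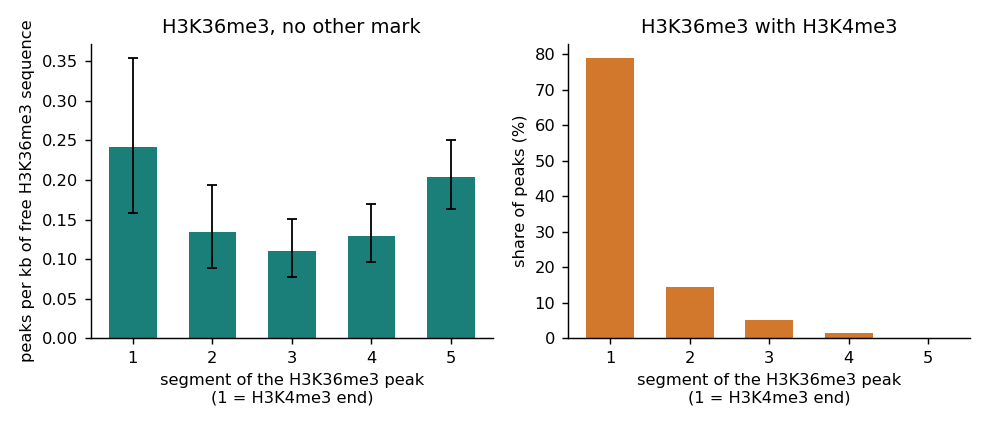
Position in 1459 H3K36me3 peaks with H3K4me3 at 1 end, in 5 equal segments from that end (horizontal axes). Left, lone ASH2 peaks per kb of H3K36me3 sequence free of other marks, with 95% Poisson intervals, highest in the segments at the ends (0.242 and 0.203); right, share (%) of ASH2 peaks with H3K4me3, 78.98% in the first segment and 0 in the last.

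Lone peaks were mostly single in their H3K36me3 peak. They lay on 781 of the 5760 H3K36me3 peaks (13.6%), of which 700 held 1, 76 held 2 and 5 held 3. In the median these H3K36me3 peaks were 1355 bp wide, and the other H3K36me3 peaks 1247 bp, with 955 bp against 443 bp free of the excluded marks. Of them, 60.6% carried none of the excluded marks, compared with 33.3% of the other H3K36me3 peaks. H3K4me3 was present on 29.6% against 48.3%, Ser2P on 17.8% against 41.8% and Ser5P on 5.51% against 17.0%. A host with less of the excluded marks leaves more room for a lone peak, and per kb of free sequence lone peaks were about as frequent in H3K36me3 peaks with H3K4me3 (0.187 per kb, interval 0.165 to 0.212) as in those without (0.203, 0.187 to 0.219). Where Ser2P was on the same H3K36me3 peak the density was 0.165 per kb (0.140 to 0.193), against 0.207 without it (0.192 to 0.223). These densities took every lone peak that overlapped the H3K36me3 peak by at least 1 bp, also the 116 with a midpoint outside. They are therefore not the midpoint densities given above.

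Long H3K36me3 peaks held lone ASH2 peaks hardly more often than short ones. A lone peak was found on 13.6% of the narrowest 25% of H3K36me3 peaks (up to 784 bp) and on 14.9% of the widest 25% (1957 to 13761 bp). Counted in the same way by overlap, the narrowest had 0.406 per kb of free sequence (interval 0.352 to 0.467) and the widest 0.122 (0.107 to 0.138). A count by overlap runs higher per kb on short H3K36me3 peaks than a count of midpoints. Part of this difference is therefore built into the count, and how much was not separated.

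Most lone peaks had no other lone peak within 1000 bp. No value for an even spread was computed, so the shares below do not tell whether lone peaks cluster. Another lone peak lay within 1000 bp of 169 lone peaks (19.5%, interval 16.9 to 22.3) and within 10000 bp of 418 (48.2%), and the median gap to the nearest other lone peak was 11483 bp. When lone peaks no more than 1000 bp apart were joined, 777 runs resulted, of which 698 held 1 peak, 70 held 2, 7 held 3 and 2 held 4. The longer run of 4, on 2L from 15266522 to 15269009, had 745 bp of ASH2 peak in 2488 bp. That on 2R from 8044497 to 8046958 had 720 bp in 2462 bp and lay 2484 bp from H3K4me3. Of the runs of 3, one spanned 2246 bp on X (144134 to 146379), another 1916 bp on 2R (7740846 to 7742761) and another 1810 bp on 3L (7323979 to 7325788).

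H3K36me3 peaks with 3 lone peaks held both very narrow and wider ones. On 3L from 14762737 to 14768660 (5924 bp), the 3 lone peaks were 14, 6 and 13 bp wide, and ASH2 covered 0.557% of the H3K36me3 peak. On 3L from 17361300 to 17366768 (5469 bp, free of all excluded marks), they were 555, 11 and 2 bp wide. The most densely covered H3K36me3 peak without an excluded mark among the 5, on 2L from 13787463 to 13788539 (1077 bp), held peaks of 145, 139 and 314 bp, and ASH2 covered 39.6% of it. The remaining ones carried excluded marks. That on 3L from 4283914 to 4286608 held lone peaks of 12, 321 and 456 bp. That on 3R from 3746312 to 3749930 held lone peaks of 1, 42 and 326 bp.

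The nearest ASH2 peak of any kind lay a median of 812 bp from a lone peak (arm medians 673 to 996), 558 bp from a peak on H3K36me3 with H3K4me3 and 628 bp from a peak in no other list. A neighbour within 200 bp was present at 85 lone peaks (9.80%), at 16.7% of the peaks with H3K4me3 and at 20.4% of those in no other list. For 226 lone peaks (26.1%) the nearest ASH2 peak was one on H3K36me3 with H3K4me3. For 172 (19.8%) it was an ASH2 peak at H3K4me3 outside H3K36me3. It was another lone peak for 195 (22.5%) and a peak in no other list for 219 (25.3%). A lone peak was the nearest for 9.08% of the peaks with H3K4me3 and 1.10% of those in no other list, while lone peaks were 2.75% of all ASH2 peaks.

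Peaks just inside and just outside the rule were as follows. The 54 lone peaks that reached past an H3K36me3 edge and touched the mark by 50 bp or less measured 138.5 bp in the median, and the 79 peaks in no other list that stopped within 50 bp of H3K36me3 had 88.0 bp. The 17 lone peaks within 50 bp of H3K4me3 had a median of 240 bp. The 15 peaks on H3K36me3 that met H3K4me3 alone of the excluded marks, by 50 bp or less, and reached past it had 157 bp.

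By arm there were 168 lone peaks on 2L, 180 on 2R, 185 on 3L, 189 on 3R and 145 on X. Per kb of free H3K36me3 sequence, ASH2 midpoints numbered 0.221 on 2L, 0.182 on 2R, 0.209 on 3L, 0.180 on 3R and 0.161 on X. The X was thus the lowest, with an interval (0.135 to 0.192) that overlapped those of 2R, 3L and 3R and, by a small margin, that of 2L (0.188 to 0.258).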

How the data were processed

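The authors deposited 1 peak list per library, with chromosome, start and end per the file headers (a text that describes the columns) and positions on dm3 per the submitters' processing notes. Per the labels' protocols, each precipitation used 2 µg of antibody. How reads were aligned and peaks called is not given in the sources used here. The lists hold no count, height or p, so no value of them was normalized. Printed starts were raised by 1 bp.

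Overlap meant at least 1 bp, and a peak on several H3K36me3 peaks was given to the one it overlapped most. Arms were taken to end at the last peak of any list. Shares have exact (Clopper-Pearson) 95% intervals, medians order-statistic ones and densities Poisson ones. Python 3.11.15, numpy 2.4.6, pandas 2.3.3 and scipy 1.17.1 were used, and the interval functions were tested on simulated data.

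Positions named are the 5 widest and the 5 farthest from H3K4me3, the 5 H3K36me3 peaks and the 5 runs with the most lone peaks, and the widest comparison peaks, of which some are printed. The peaks, groups and measures were chosen with earlier results of these data known, and the densities by place in the list were added after seeing the values.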

Additional observations from a re-analysis of the deposited data

How the results depend on the processing

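The 7 results were recomputed under 7 other settings, and 27 of 49 values stayed within the 95% interval of the value above. This count does not measure robustness, because some outcomes were fixed by the setting. Requiring at least 50% of the ASH2 peak inside H3K36me3 cannot change the midpoint density ratio. Leaving out peaks under 100 bp raises the width, and leaving out those within 500 bp of an excluded peak removes the short gaps. With the first 50% of each chromosome's ASH2 entries, 128 lone peaks remained: their share of ASH2 on H3K36me3 was 9.88%, their median width 383 bp, their relative position -0.00469, the share with another lone peak within 1000 bp 1.56%, and the density ratio of free H3K36me3 to unmarked sequence 0.147. With ASH2 peaks of at least 100 bp these were 18.8%, 269.5 bp, 0.280, 13.6% and 0.792. With no excluded peak within 500 bp the share was 16.0%, the width 123 bp, the density ratio 0.763, and the gaps to H3K4me3 and Ser5P 2000 and 5682 bp. This setting trimmed the free H3K36me3 sequence to 3160 kb but left the unmarked sequence untrimmed at 93745 kb. Its density ratio therefore compares unlike sequence and cannot be set directly beside 0.886. With at least 50% of the ASH2 peak inside H3K36me3 the share was 32.4%, the width 125 bp and the position 0.408. With the wider 50% of the H3K36me3 list the share was 24.97%, the position 0.285 and the density ratio 0.705, and with H3K36me3 peaks joined over gaps of up to 500 bp the position was 0.404. In the setting with the wider 50%, free sequence of the narrower H3K36me3 peaks counted as unmarked, which came to 94966 kb. Its density ratio therefore also compares unlike sequence. Leaving out the X moved none of the 7 results out of its interval. No paired analysis was possible because each target has 1 library, and no replicate could be left out. Depth is unknown, so it could not be used to limit any value.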
